A study of Homo sapiens with 9 samples.

Results

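The histone genes of SW1353 cells were taken as every row of the deposited expression table whose symbol begins with HIST1H to HIST4H, H2AF, H3F3 or H1F, the older histone symbols that the table uses. This rule found 87 of 19389 rows. The 71 with HIST1 to HIST4 symbols are called replication-dependent here and the other 16 variant. The class follows the symbol alone, so the 71 also hold rows such as the germ-line gene HIST1H1T and HIST2H3PS2. SW1353 is a human chondrosarcoma line that is used as a model of chondrocytes. The study asked how PBSL, a preparation from larvae of the beetle Protaetia brevitarsis seulensis, alters the transcriptome of these cells under interleukin-1β (IL-1β), an inflammatory cytokine. All cells were cultured for 24 h before treatment, and there were 3 groups of 3 libraries. The first group received PBSL for 2 h and then 20 ng/mL IL-1β for 20 h, the next received 20 ng/mL IL-1β for 20 h alone, and the last was untreated. The PBSL concentration behind the sequenced libraries is not stated in the labels used here, and no group given PBSL without IL-1β was analysed here.

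Histone genes fall into families whose mRNAs end differently. Replication-dependent genes, which lie in clusters and encode most of the H1, H2A, H2B, H3 and H4 made in S phase, give mRNAs that end in a conserved stem-loop bound by the stem-loop binding protein SLBP and carry no poly(A) tail. Variant genes such as H3F3A, H2AFZ and H1F0 are expressed outside S phase as well and give ordinary polyadenylated mRNAs, and some replication-dependent genes are known to give a longer polyadenylated transcript besides the short one. The labels call these mRNA-sequencing libraries made with a directional kit and do not state how mRNA was selected. A selection on poly(A) leaves out mRNAs that end at the stem-loop, so the values of replication-dependent rows below describe the transcripts that such a library can hold, and a low or zero value says nothing about the amount of stem-loop-ended mRNA.

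The stem-loop is shown here because an mRNA that ends at it would be missing from a poly(A)-selected library. Each line gives 30 bases of the GENCODE 29 transcript (GRCh38, transcript strand), with the 16-base stem-loop in capitals.
HIST2H2BE: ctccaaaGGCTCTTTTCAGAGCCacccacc
HIST1H2AC: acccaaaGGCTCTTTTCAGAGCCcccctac
HIST1H2BC: ccccaaaGGCTCTTTTAAGAGCCacccaga
HIST1H4H: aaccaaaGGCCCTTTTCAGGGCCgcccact
HIST1H3H: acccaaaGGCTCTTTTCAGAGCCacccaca
H2AFX: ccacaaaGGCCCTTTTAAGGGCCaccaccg
The form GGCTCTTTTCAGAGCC was the most frequent, in 17 histone genes with 30 bases of transcript around it. The pattern GGNNCTTNTNAGNGCC, searched on the transcript strand, occurred in 33 of 87 histone genes (37.9%) and in 39 of 57046 other genes (0.0684%). Of the variant genes with a deposited value above 1, H2AFX alone held it, and H2AFX is known to give both a stem-loop-ended and a polyadenylated mRNA. A gene model that stops at the stop codon cannot show a stem-loop, which was so for 35 of the 71 replication-dependent genes, HIST1H1C and HIST1H2BK among them. In the HIST2H2BE model 1729 bases followed the stem-loop, in HIST1H4H 1655, in HIST1H2AC 1128, in HIST1H3H 769 and in HIST1H2BC 116.

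Most replication-dependent rows were close to empty. Because the class follows the symbol alone, these include HIST1H1T, at 0 throughout, and HIST2H3PS2, with a highest value of 0.228. Of the 71, 21 were at 0 in all 9 libraries, 28 stayed below 1 normalized unit in every library, 5 reached 1 without passing the filter, and 17 reached 1 in no fewer than 3 libraries, which was the condition for testing. The 17 comprised 1 of 6 H1 genes (HIST1H1C), 6 of 17 H2A genes (HIST1H2AC, HIST1H2AG, HIST1H2AI, HIST1H2AK, HIST2H2AC, HIST3H2A), 7 of 18 H2B genes (HIST1H2BC, HIST1H2BD, HIST1H2BJ, HIST1H2BK, HIST1H2BL, HIST1H2BN, HIST2H2BE), 2 of 15 H3 genes (HIST1H3C, HIST1H3H) and 1 of 15 H4 genes (HIST1H4H). Of the 16 variant genes 10 were tested (H1F0, H1FX, H2AFJ, H2AFV, H2AFX, H2AFY, H2AFY2, H2AFZ, H3F3A, H3F3B). The 6 variants left were the germ-line linker histones H1FNT and H1FOO, H3F3C, and H2AFB1, H2AFB2 and H2AFB3. Of these only H1FOO was at 0 throughout, and the highest value among them was 0.457 in H2AFB3. No gene passed the filter through the libraries of 1 group only.

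Annotated transcript ends differed between tested and untested replication-dependent genes. An end that runs at least 100 bases past the stop codon with a poly(A) signal (AATAAA or ATTAAA) in its last 60 bases was annotated for 22 of the 71, and 10 of these 22 were tested. Among the other 49, 7 were tested, and the most abundant of them, HIST1H2BK and HIST1H1C, have models that end at the stop codon. The values behave as scaled to transcript length, since low rows with transcripts under 1000 bases had a median smallest nonzero value of 0.0905, against 0.036 for those over 4000 bases. The level of a gene whose model is shorter than its mRNA, as can be the case for HIST1H2BK, is then uncertain. The annotation behind the values is not given, and an effect of model length on these levels was not tested.

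**Figure D1:**
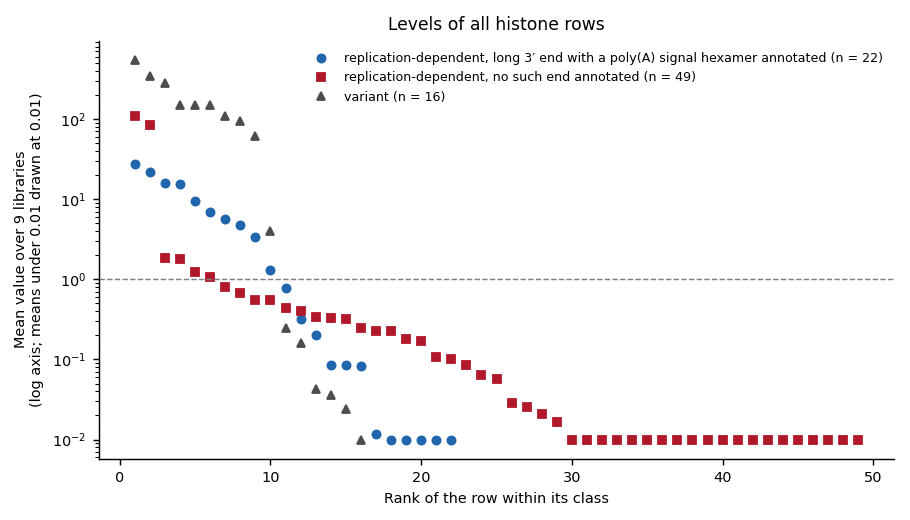
Mean deposited value over the 9 libraries for each of the 87 histone rows, on a log axis, ranked within 3 classes: replication-dependent genes with a long 3′ end and poly(A) signal annotated (circles, n = 22), those without (squares, n = 49) and variants (triangles, n = 16). The dashed line marks 1, means under 0.01 are drawn at 0.01, and the highest replication-dependent rows are the squares for HIST1H2BK and HIST1H1C at 107.5 and 83.0.

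Variant genes carried most of the summed histone signal. Replication-dependent genes made up 14.2%, 10.8% and 12.1% of the summed histone values in the PBSL plus IL-1β libraries, 16.5%, 16.2% and 17% in the IL-1β libraries, and 13.7%, 14.0% and 15.3% in the untreated libraries. Every IL-1β library was above every library of the other groups. The summed replication-dependent value averaged 296 ± 35.2 units in PBSL plus IL-1β libraries, 362 ± 7.83 in IL-1β libraries and 291 ± 20.2 in untreated libraries (SD, n = 3 each). The summed variant value averaged 2105 ± 163 units in PBSL plus IL-1β libraries, 1824 ± 18.3 in IL-1β libraries and 1739 ± 44.1 in untreated libraries (SD, n = 3 each). HIST1H2BK gave 34.0% of the replication-dependent sum over all libraries and H2AFZ 29% of the variant sum.

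The libraries as a whole showed a strong response to IL-1β, and 1 library stood apart from its group. All 6 genes checked for exposure (CXCL8, IL6, IL1B, MMP1, MMP3, MMP13) rose with IL-1β. Column sums were 536952 to 553196 units, and the absolute depth is unknown. On the second principal component, which held 16.6% of the variance, PBSL plus IL-1β library 1 stood at 0.578, against 18.2 and 16.8 for the other 2 libraries of its group and -12.4 to -11.5 for the IL-1β libraries. Of 7 chondrocyte markers, COL2A1, COMP and MATN3 did not pass the filter, and COL2A1, the defining cartilage collagen, reached at most 0.027, while SOX9, COL11A1, HAPLN1 and ACAN were tested. Of 11 markers of blood, endothelial and epithelial cells, only CD3E, KRT8 and KRT18 passed the filter, and their summed value was 54.4 to 73.9 units in PBSL plus IL-1β libraries, 72.9 to 74.1 in IL-1β libraries and 137 to 147 in untreated libraries. PTPRC, PECAM1 and EPCAM, which define blood, endothelial and epithelial cells, did not pass it, and the part of these markers in the histone results was not tested. The labels do not say whether libraries of a group came from separate cultures, so p-values measure only the spread between these libraries. In bulk RNA, fewer cells expressing a gene and less RNA per cell cannot be told apart.

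IL-1β raised a set of replication-dependent H2A, H2B and H4 transcripts and the linker variants H1F0 and H1FX, and shifted the balance between the pair of genes for histone H3.3. In the comparison of IL-1β with untreated cells, 10 of the 27 tested histone genes rose and 1 fell at an adjusted p under 0.05 (limma on log2(value + 1), Benjamini-Hochberg over 11924 genes). Of all genes tested, 32.1% were called, 16.2% higher and 16% lower, and of the tested histone genes 37% were called higher and 3.70% lower. Among the replication-dependent genes 7 of 17 rose and none fell, with a median log2 fold change of 0.25 against -0.0049 over all genes tested. The member genes were chosen with earlier results in view, and no test of the share was made. Groups did not overlap for 16 of the 27, against 52.8% of all genes tested.

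HIST2H2BE encodes H2B and lies on chromosome 1 from 149884459 to 149886652 on the minus strand (GENCODE 29, GRCh38). It stood at 21.2, 13.9 and 15.8 units in PBSL plus IL-1β libraries, 30.8, 30.2 and 32.5 in IL-1β libraries and 16.8, 16.9 and 18.6 in untreated libraries. All IL-1β libraries lay above all others, and the values of the other 2 groups overlapped. It had the largest fitted change among the tested histone genes in the comparison of IL-1β with untreated cells, a log2 fold change of 0.80 (95% interval 0.55 to 1.06, limma adjusted p = 0.000232). The comparison of PBSL plus IL-1β with IL-1β, which shares the IL-1β libraries, gave -0.86 (95% interval -1.11 to -0.61, adjusted p = 0.00268, limma). Between PBSL plus IL-1β and untreated cells it was -0.06 (95% interval -0.31 to 0.20, limma adjusted p = 0.727), and without PBSL plus IL-1β library 1 it was -0.22 (adjusted p = 0.0272).

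HIST1H2AC (H2A) and HIST1H2BC (H2B) lie head to head on chromosome 6, at 26124145 to 26139116 on the plus strand and 26114873 to 26123926 on the minus strand (GRCh38), with start sites 219 bases apart. HIST1H2AC had 27.9, 21.2 and 23.5 units in PBSL plus IL-1β libraries, 36.9, 31.4 and 35.9 in IL-1β libraries and 23.4, 23.8 and 26.1 in untreated libraries. For HIST1H2BC the values were 15.7, 11.7 and 13.8 units in PBSL plus IL-1β libraries, 19.5, 21.3 and 20.9 in IL-1β libraries and 12.3, 14.5 and 14.3 in untreated libraries. In both genes the IL-1β libraries were the 3 highest and the other groups overlapped. With IL-1β against untreated cells HIST1H2AC rose by a log2 fold change of 0.49 ± 0.09 (SE, limma adjusted p = 0.00180) and HIST1H2BC by 0.56 ± 0.10 (SE, limma adjusted p = 0.000802). With PBSL plus IL-1β against IL-1β, HIST1H2AC fell by 0.51 (SE 0.09, limma adjusted p = 0.00490) and HIST1H2BC fell by 0.55 (SE 0.10, limma adjusted p = 0.00408) on the log2 scale. By GENCODE gene starts there were 3 other head-to-head pairs with both genes tested. They were HIST1H2BJ with HIST1H2AG (292 bases apart), HIST1H2BL with HIST1H2AI (268 bases) and HIST2H2BE with HIST2H2AC (323 bases). In none of these pairs did both genes pass the threshold in any comparison of the main fit. With IL-1β against untreated cells, HIST1H2AG and HIST1H2BJ both passed in a fit of only the compared groups (limma adjusted p = 0.0134 for HIST1H2AG). Without PBSL plus IL-1β library 1, HIST2H2AC and HIST2H2BE were both called lower against IL-1β (limma adjusted p = 0.0254 for HIST2H2AC) and against untreated cells. HIST2H2AC averaged only 1.07 units. HIST1H2AK and HIST1H2BN were not counted as a pair, although their RefSeq promoters overlap on opposite strands. Neither of them was called in any comparison.

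The promoter windows of HIST1H2AC and HIST2H2BE are printed because HIST2H2BE had the largest fitted changes and the HIST1H2AC window serves a head-to-head pair that both changed. Each runs from 250 bases before to 50 after the RefSeq start (GRCh38.p14), on the gene's strand, as chr6:26123922-26124221 (plus strand) and chr1:149886633-149886932 (minus strand). Capitals mark matches on either strand to the CCAAT box, to the TATA box letters TATAAA and to the octamer ATTTGCAT.
HIST1H2AC: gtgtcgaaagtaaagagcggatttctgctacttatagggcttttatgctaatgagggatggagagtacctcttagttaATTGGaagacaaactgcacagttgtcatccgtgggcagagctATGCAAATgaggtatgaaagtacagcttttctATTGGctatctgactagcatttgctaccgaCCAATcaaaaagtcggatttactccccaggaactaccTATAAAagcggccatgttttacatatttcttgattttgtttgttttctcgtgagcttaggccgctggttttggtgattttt
HIST2H2BE: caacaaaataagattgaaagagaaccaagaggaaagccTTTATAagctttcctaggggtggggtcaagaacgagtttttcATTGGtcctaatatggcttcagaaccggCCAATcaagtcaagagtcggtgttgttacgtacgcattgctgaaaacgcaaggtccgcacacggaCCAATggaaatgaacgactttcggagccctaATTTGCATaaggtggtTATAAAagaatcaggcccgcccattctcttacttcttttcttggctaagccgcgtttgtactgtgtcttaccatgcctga
The HIST1H2AC window also holds the GENCODE start of HIST1H2BC on the opposite strand. The HIST2H2BE window overlaps the RefSeq promoter window of HIST2H2AC on the opposite strand (chr1:149886668-149886967). HIST2H2AC was called in no comparison of the main fit, and matches in the shared part cannot be assigned to either gene alone. Each window held 3 matches to CCAAT and 1 to the octamer, with 1 TATAAA match for HIST1H2AC and 2 for HIST2H2BE. A promoter was found for 75 of the 87 genes, 61 of them replication-dependent. Among those 61, 83.6% held CCAAT, 65.6% TATAAA and 42.6% the octamer, against 34.6%, 11.5% and 1.77% of 35116 RefSeq promoters of the same length. The octamer was in 14 of 18 replication-dependent H2B promoters (77.8%). A match describes the letters of the window and is not a bound site.

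HIST1H4H, the single tested H4 gene, had 9.71, 7.39 and 8.28 units in PBSL plus IL-1β libraries, 11.1, 10.7 and 11.4 in IL-1β libraries and 8.19, 8.56 and 8.85 in untreated libraries. It again had its 3 highest values under IL-1β alone. It rose with IL-1β by a log2 fold change of 0.34 (limma adjusted p = 0.00828). With PBSL plus IL-1β against IL-1β it fell by 0.36 on the log2 scale (limma adjusted p = 0.0123), and this call was lost without IL-1β library 3 (adjusted p = 0.0508, range over the 16 alternatives 0.000812 to 0.0508).

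HIST1H2BJ differed from these in that its level under PBSL plus IL-1β stayed near that under IL-1β. It had 5.88, 5.25 and 5.46 units in PBSL plus IL-1β libraries, 5.51, 5.90 and 5.18 in IL-1β libraries and 4.07, 2.61 and 3.19 in untreated libraries. All 6 libraries given IL-1β were above all 3 untreated ones. The log2 fold change was 0.62 with IL-1β (limma adjusted p = 0.000953) and 0.62 with PBSL plus IL-1β (limma adjusted p = 0.000792), both against untreated cells. Between PBSL plus IL-1β and IL-1β it was 0.00081 (95% interval -0.24 to 0.24). HIST1H2BJ was the only one of 17 tested replication-dependent genes called between PBSL plus IL-1β and untreated cells. HIST1H2BK and HIST1H1C just missed the threshold, at 0.22 and -0.25 (limma adjusted p = 0.0533 and 0.0528). HIST1H2BK was called higher without untreated library 3 or PBSL plus IL-1β library 2 or 3 (adjusted p = 0.0109, 0.0493 and 0.0468). HIST1H1C was called lower without untreated library 2 or PBSL plus IL-1β library 1 (adjusted p = 0.0213 and 0.00569). Without the latter library HIST2H2AC and HIST2H2BE were also called lower (adjusted p = 0.0118 and 0.0272).

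HIST1H2BK and HIST1H2BD, both H2B genes, rose with IL-1β by smaller margins. HIST1H2BK, the most abundant replication-dependent row, had 124, 104 and 104 units in PBSL plus IL-1β libraries, 114, 121 and 117 in IL-1β libraries and 86.6, 90.4 and 107 in untreated libraries. HIST1H2BD had 15.9, 15.3 and 13.3 units in PBSL plus IL-1β libraries, 21.8, 14.8 and 18.4 in IL-1β libraries and 12.4, 13.2 and 14.8 in untreated libraries. The IL-1β and untreated libraries were separate for HIST1H2BK and overlapped for HIST1H2BD at 14.8. The log2 fold change with IL-1β was 0.31 for HIST1H2BK (limma adjusted p = 0.0157), and the call was lost without untreated library 1, untreated library 2 or IL-1β library 2 (adjusted p = 0.0714, 0.0593 and 0.0590 in this order). For HIST1H2BD it was 0.41 (limma adjusted p = 0.0201), lost in 5 of 16 alternatives with an adjusted p of up to 0.0862 without IL-1β library 1. Neither gene passed the threshold with PBSL plus IL-1β against IL-1β. There the log2 fold change was -0.08 for HIST1H2BK and -0.28 for HIST1H2BD (limma adjusted p = 0.509 and 0.114). Leaving out IL-1β library 2 gave HIST1H2BD a call (adjusted p = 0.0297). A share of 28.4% of the 100-base windows of HIST1H2BK also occurs in transcripts of other genes, and none of those of HIST1H2BD. HIST1H2BD overlaps the pseudogene LARP1P1 on its own strand and another annotated gene on the opposite strand, so both values are uncertain where counting could split reads.

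**Figure D2:**
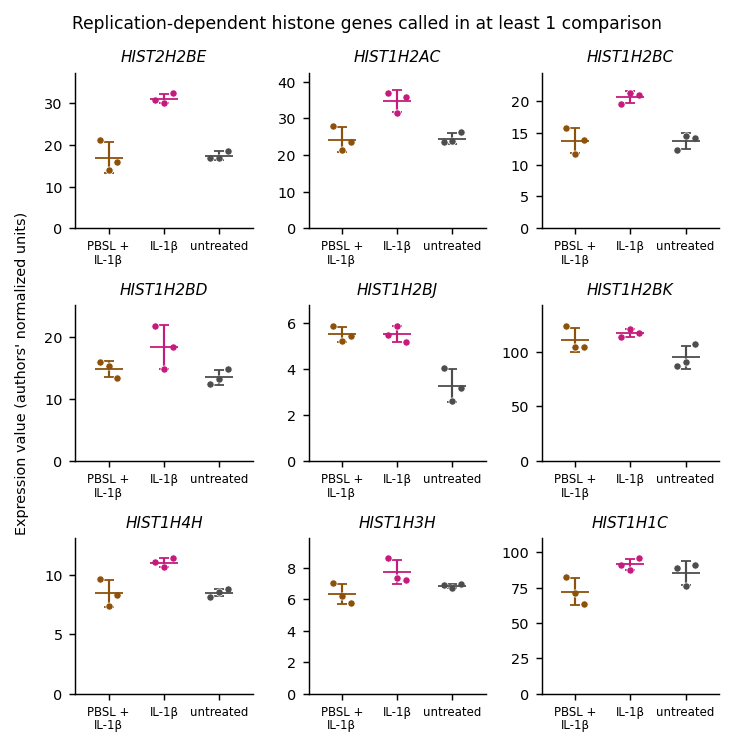
Deposited values (authors' normalized units, axes from 0) of the 9 replication-dependent histone genes called in at least 1 comparison, for PBSL plus IL-1β, IL-1β and untreated libraries. Points are libraries, and bars are the mean ± SD of 3. In HIST2H2BE, HIST1H2AC, HIST1H2BC and HIST1H4H the IL-1β points lie above both other groups, while HIST1H2BJ is high in both groups given IL-1β.

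With PBSL given before IL-1β, 6 of the 17 tested replication-dependent genes were lower than with IL-1β alone and 3 H2A variants were higher. In the comparison of PBSL plus IL-1β with IL-1β, 3 of 27 tested histone genes rose and 6 fell, where 22.5% of all genes tested were called, 11.5% higher and 11% lower. Of the 27, 11.1% rose, close to the share of all genes, and 22.2% fell. All 6 that fell were replication-dependent (35.3% of the 17 tested) and all 3 that rose were variants (30% of the 10 tested). These 3 were H2AFZ, H2AFX and H2AFY, and the H2AFY call was lost in 6 of 16 alternatives. The other 11 replication-dependent genes did not pass the threshold, with log2 fold changes of up to 0.22 in HIST1H2AK and HIST1H3C. Both rows were low, with means of 1.82 and 0.803 units over the 9 libraries, so their changes are uncertain. The median log2 fold change was -0.16 for the 17 replication-dependent genes and 0.11 for the 10 variants, against 0.0079 over all genes tested. Besides HIST2H2BE, HIST1H2AC, HIST1H2BC and HIST1H4H, the genes that fell were HIST1H1C and HIST1H3H. Groups did not overlap for 11 of the 27, against 41.8% of all genes tested.

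HIST1H1C encodes the linker histone H1.2. Its values were 82.3, 70.9 and 63.2 units in PBSL plus IL-1β libraries, 91.0, 87.6 and 95.8 in IL-1β libraries and 89.3, 75.9 and 91.2 in untreated libraries. HIST1H3H, the more abundant of the 2 tested H3 genes, had 7.02, 6.20 and 5.78 units in PBSL plus IL-1β libraries, 8.61, 7.38 and 7.23 in IL-1β libraries and 6.90, 6.74 and 6.97 in untreated libraries. For both, the PBSL plus IL-1β libraries were below every IL-1β library. HIST1H1C fell by 0.35 on the log2 scale (limma adjusted p = 0.0222), and the call was lost with no filter on low values and without IL-1β library 1, IL-1β library 3, PBSL plus IL-1β library 2 or PBSL plus IL-1β library 3 (adjusted p = 0.0583, 0.0616, 0.0814, 0.0674 and 0.0722 in this order). HIST1H3H fell by 0.25 (limma adjusted p = 0.0439), a call that was lost in 11 of 16 alternatives (adjusted p 0.0112 to 0.173, the highest without IL-1β library 1). Neither gene passed the threshold with IL-1β against untreated cells, where the log2 fold changes were 0.10 and 0.15.

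The calls among replication-dependent genes were also counted by whether a long end with a poly(A) signal is annotated. With IL-1β against untreated cells, 6 of the 10 tested genes with such an end rose, and 1 of the 7 without, where 16.2% of all genes tested rose. With PBSL plus IL-1β against IL-1β, 5 of those 10 fell, and 1 of those 7, where 11% of all genes tested fell. The difference between the 10 and the 7 genes was not tested. Apart from HIST1H2BK and HIST1H1C, the tested genes without such an end averaged only 0.803 to 1.82 units over the 9 libraries, and the part of this low level in the counts was not tested. The 8 tested replication-dependent genes called in no comparison were HIST1H2AG, HIST1H2AI, HIST1H2AK, HIST1H2BL, HIST1H2BN, HIST1H3C, HIST2H2AC and HIST3H2A. Among them HIST1H2AG was the most abundant, at 4.58 to 6.56 units over the 9 libraries. Its log2 fold change with IL-1β was 0.25 (limma adjusted p = 0.0605), and it was called in a fit of only the compared groups and without PBSL plus IL-1β library 1 or 2 (adjusted p = 0.0134, 0.0144 and 0.0483 in this order). With PBSL plus IL-1β against IL-1β it was -0.14 (limma adjusted p = 0.289), and it was called lower without PBSL plus IL-1β library 1 (adjusted p = 0.0257). HIST1H2AI shares 57.7% of its windows with other genes, and HIST1H2AK lies inside HIST1H2BN on the opposite strand, so their values are uncertain where counting could split or mix reads. H1FX, H2AFY, H2AFY2, H2AFZ, H3F3A and H3F3B also overlap an annotated gene on the opposite strand, and the strand setting of the counting is not given in the sources used here.

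**Figure D3:**
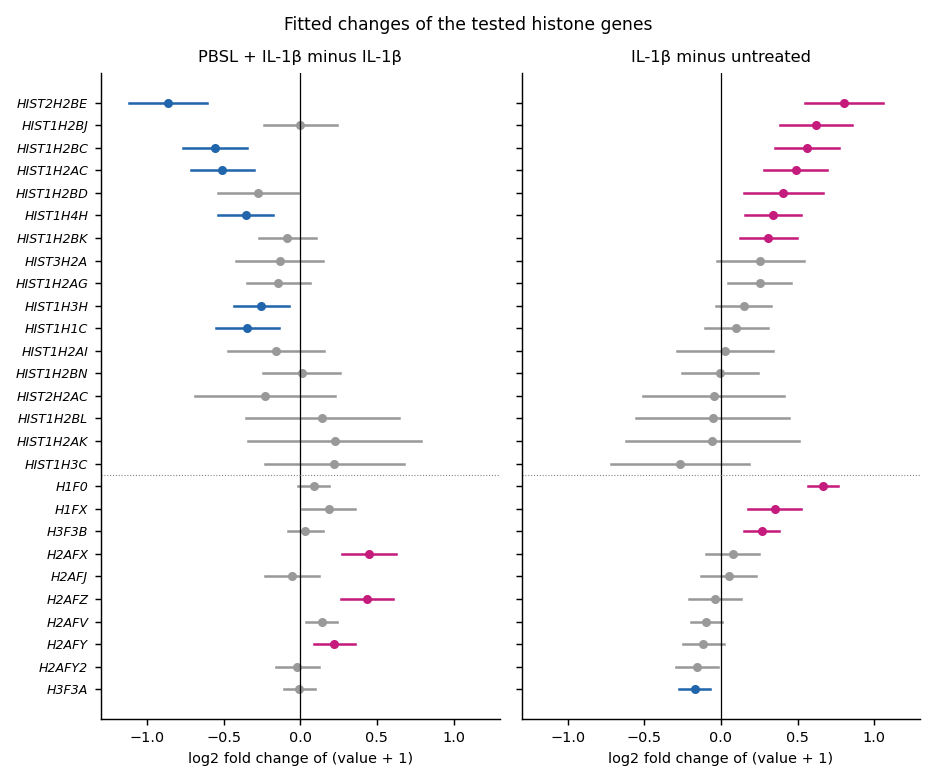
Fitted log2 fold changes of (value + 1) with 95% intervals for the 27 tested histone genes, PBSL plus IL-1β minus IL-1β on the left and IL-1β minus untreated on the right. Replication-dependent genes are above the dotted line and variants below it, and magenta marks called higher, blue called lower and grey not called. HIST2H2BE lies at -0.86 on the left and 0.80 on the right.

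Of the variants, the linker histones rose with IL-1β whether or not PBSL was given. H1F0 (chromosome 22, 37805093 to 37807436, plus strand, GRCh38) encodes H1.0, a linker histone known to accumulate in differentiated and resting cells. It had 129, 133 and 129 units in PBSL plus IL-1β libraries, 123, 122 and 121 in IL-1β libraries and 80.1, 74.6 and 75.5 in untreated libraries. H1FX, the gene of the linker variant H1.10, had 171, 196 and 152 units in PBSL plus IL-1β libraries, 149, 154 and 151 in IL-1β libraries and 124, 111 and 121 in untreated libraries. In both, every library given IL-1β exceeded every untreated library. For H1F0 the log2 fold change was 0.75 with PBSL plus IL-1β (limma adjusted p = 2.02e-07) and 0.67 with IL-1β (limma adjusted p = 5.26e-07), each against untreated cells. For H1FX these were 0.53 (limma adjusted p = 0.000265) and 0.35 (limma adjusted p = 0.00537). PBSL plus IL-1β against IL-1β gave 0.09 for H1F0 (95% interval -0.01 to 0.19) and 0.18 for H1FX (95% interval 0.01 to 0.36), and neither passed the threshold (limma adjusted p = 0.184 and 0.118).

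The pair of H3.3 genes moved apart. H3F3A and H3F3B encode the same H3.3 protein, which is placed into chromatin outside replication, from chromosome 1 (226061851 to 226072001, plus strand) and chromosome 17 (75776434 to 75785893, minus strand, GRCh38). H3F3B had 364, 398 and 351 units in PBSL plus IL-1β libraries, 367, 361 and 359 in IL-1β libraries and 299, 299 and 305 in untreated libraries. H3F3A had 266, 273 and 264 units in PBSL plus IL-1β libraries, 271, 272 and 264 in IL-1β libraries and 300, 293 and 317 in untreated libraries. Libraries given IL-1β were all above the untreated ones for H3F3B and all below them for H3F3A. The ratio of H3F3B to H3F3A was 1.37, 1.46 and 1.33 in PBSL plus IL-1β libraries and 1.35, 1.33 and 1.36 in IL-1β libraries, against 0.997, 1.02 and 0.964 in untreated libraries. The sum of the 2 genes averaged 639 ± 29 units in PBSL plus IL-1β libraries, 632 ± 7.29 in IL-1β libraries and 605 ± 15 in untreated libraries (SD, n = 3 each). With IL-1β against untreated cells the log2 fold change was 0.27 for H3F3B (limma adjusted p = 0.00201) and -0.17 for H3F3A (limma adjusted p = 0.0140). The H3F3A call was lost without untreated library 3 or IL-1β library 3 (adjusted p = 0.0666 and 0.0694). With PBSL plus IL-1β against untreated cells the changes were 0.30 (limma adjusted p = 0.000793) and -0.18 (limma adjusted p = 0.00892). A share of 10.4% of the H3F3A windows occurs in other genes, and none of the H3F3B windows.

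The H2A variants H2AFZ and H2AFX were highest with PBSL plus IL-1β. H2AFZ, the gene of H2A.Z.1, which marks promoters, was the most abundant histone row, with 603, 747 and 627 units in PBSL plus IL-1β libraries, 498, 490 and 470 in IL-1β libraries and 539, 484 and 478 in untreated libraries. H2AFX, whose protein is phosphorylated at DNA breaks, had 175, 215 and 168 units in PBSL plus IL-1β libraries, 132, 137 and 135 in IL-1β libraries and 133, 129 and 122 in untreated libraries. For both genes the 3 PBSL plus IL-1β libraries were above the other 6, which overlapped. PBSL plus IL-1β against IL-1β gave a log2 fold change of 0.43 for H2AFZ (limma adjusted p = 0.00437) and 0.45 for H2AFX (limma adjusted p = 0.00428). Against untreated cells PBSL plus IL-1β gave 0.39 for H2AFZ (limma adjusted p = 0.00178) and 0.52 for H2AFX (limma adjusted p = 0.000293). IL-1β against untreated cells gave -0.04 and 0.08, and neither passed the threshold. H2AFV, the gene of the close homologue H2A.Z.2, ranged from 149 to 161 units in PBSL plus IL-1β libraries, 138 to 142 in IL-1β libraries and 148 to 152 in untreated libraries, and its change of 0.14 against IL-1β missed the threshold (limma adjusted p = 0.0514) but passed with no filter and without PBSL plus IL-1β library 1 or 3 (adjusted p = 0.0482, 0.0387 and 0.0368 in this order). The ratio of H2AFZ to H2AFV averaged 4.27 ± 0.33 in PBSL plus IL-1β libraries, 3.48 ± 0.15 in IL-1β libraries and 3.35 ± 0.26 in untreated libraries (SD, n = 3 each).

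The macroH2A genes passed the threshold in 1 comparison each. H2AFY encodes macroH2A1, an H2A variant with a large extra domain, and had 60.7, 69.9 and 67.1 units in PBSL plus IL-1β libraries, 55.2, 56.3 and 57.5 in IL-1β libraries and 64.7, 58.7 and 59.998 in untreated libraries. Its libraries under PBSL plus IL-1β were all above those under IL-1β and overlapped the untreated ones. H2AFY rose by a log2 fold change of 0.22 against IL-1β (limma adjusted p = 0.0246), and this call was lost in 6 of 16 alternatives (adjusted p 0.00328 to 0.0887, the highest without IL-1β library 1). H2AFY2, the gene of macroH2A2, had 3.71, 3.63 and 3.85 units in PBSL plus IL-1β libraries, 3.73, 3.74 and 3.91 in IL-1β libraries and 4.28, 4.45 and 4.28 in untreated libraries. Its untreated libraries were the highest 3. It fell by 0.17 on the log2 scale with PBSL plus IL-1β against untreated cells (limma adjusted p = 0.0450), lost in 11 of 16 alternatives (adjusted p 0.0209 to 0.114, the highest without untreated library 2). H2AFJ, an H2A variant known from senescent human fibroblasts, ranged from 82.5 to 104 units over all libraries and passed the threshold in no comparison.

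**Figure D4:**
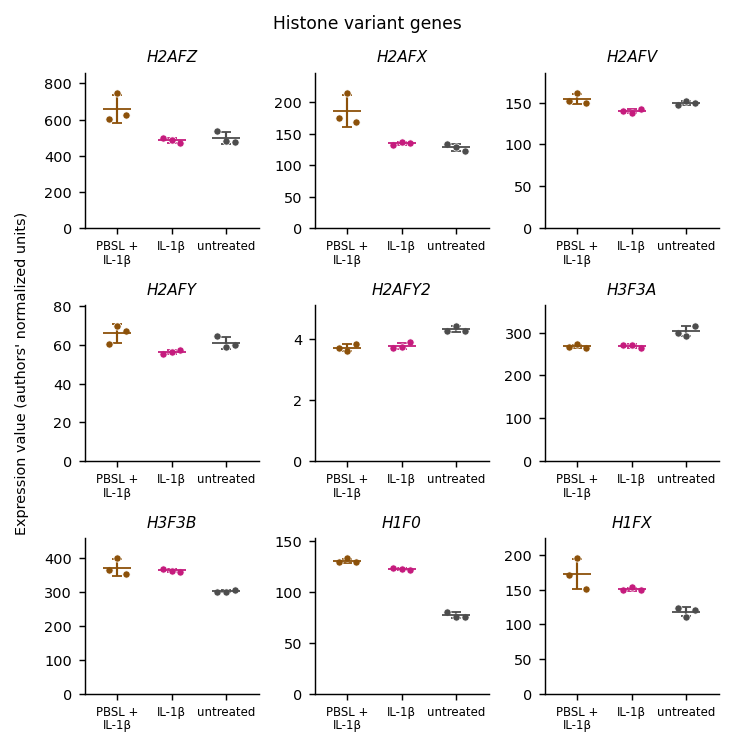
Deposited values (authors' normalized units, axes from 0) of 9 histone variant genes for PBSL plus IL-1β, IL-1β and untreated libraries, with libraries as points and the mean ± SD of 3 as bars. H1F0, H1FX and H3F3B are higher in both groups given IL-1β than in untreated cells and H3F3A is lower, while H2AFZ and H2AFX are highest with PBSL plus IL-1β.

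Against untreated cells, the histone calls with PBSL plus IL-1β lay mainly among variants, and their share was not above that of all genes. In this comparison 6 of 27 tested histone genes rose (H1F0, H1FX, H2AFX, H2AFZ, H3F3B and HIST1H2BJ) and 2 fell (H3F3A and H2AFY2), where 22.3% of all genes tested rose and 19.3% fell. The share called, 29.6%, was below the 41.6% of all genes tested, and 22.2% of the histone genes rose and 7.41% fell. Of the 10 variants 5 rose (50%) and 2 fell (20%). Of the 17 replication-dependent genes 1 rose (5.88%) and none fell. The part of the low level of many replication-dependent rows in this difference was not tested. Groups did not overlap for 8 of the 27, against 48.2% of all genes tested. The median log2 fold change was 0.0015 for the 17 replication-dependent genes and 0.20 for the 10 variants, against 0.03 over all genes tested. It shares its libraries with both other comparisons.

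Genes of DNA replication, which in cycling cells are expressed with the replication-dependent histones, followed another order over the groups. The mean log2(value + 1) of 30 DNA replication genes was 4.67, 5.01 and 4.93 in PBSL plus IL-1β libraries, 4.35, 4.35 and 4.36 in IL-1β libraries and 4.66, 4.58 and 4.47 in untreated libraries. The IL-1β libraries were the lowest, whereas the same libraries had the highest replication-dependent histone sums. Of these 30 genes, 11 fell (36.7%, against 16% of all genes tested) and none rose with IL-1β against untreated cells, and 5 of the 11 calls were lost in at least 1 alternative (MCM2, MCM4, CDT1, POLA1 and E2F1). All 30 rose with PBSL plus IL-1β against IL-1β, where 11.5% of all genes tested rose, and 4 of these calls were lost in at least 1 alternative (TK1, POLD1, POLE and RFC4). Against untreated cells, PBSL plus IL-1β gave 17 that rose (56.7%, against 22.3% of all genes tested), 5 of them with a call lost in at least 1 alternative. Within the PBSL plus IL-1β group, library 1 had the lowest replication level and the highest replication-dependent histone sum, 337 units against 277 and 274. Because histone mRNAs without a tail would be missing from a poly(A) library, the replication-dependent values cannot be read as the S-phase histone supply.

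Factors that transcribe, process or degrade histone mRNA were described by a list of 29 tested genes. Of these 11 rose (37.9%) and none fell with PBSL plus IL-1β against IL-1β, where 11.5% of all genes tested rose, and 7 of the 11 calls were lost in at least 1 alternative. In the IL-1β comparison with untreated cells 2 rose and 2 fell (6.90% each), fewer than the 16.2% and 16% of all genes tested. Against untreated cells, PBSL plus IL-1β gave 8 that rose (27.6%, against 22.3% of all genes tested), and 5 of these calls were lost in at least 1 alternative. SLBP, the stem-loop binding protein, averaged 42.1 ± 5.03 units in PBSL plus IL-1β libraries, 33.4 ± 1.04 in IL-1β libraries and 38.6 ± 2.16 in untreated libraries (SD, n = 3 each). Its log2 fold change was 0.32 between PBSL plus IL-1β and IL-1β (limma adjusted p = 0.0165), a call lost without IL-1β library 3, PBSL plus IL-1β library 2 or PBSL plus IL-1β library 3 (adjusted p = 0.0634, 0.0627 and 0.0536 in this order). Between IL-1β and untreated cells it was -0.20 (limma adjusted p = 0.0720), which passed the threshold in a fit of only the compared groups (adjusted p = 0.00818) and without PBSL plus IL-1β library 1 (adjusted p = 0.0115). NPAT, the coactivator of histone gene transcription, passed the threshold in no comparison. CCNE2, a cyclin E that acts with CDK2 upstream of NPAT, and ERI1, a nuclease that trims histone mRNA ends, both fell with IL-1β, by 0.64 (limma adjusted p = 0.000944) and 0.46 (limma adjusted p = 0.000208) on the log2 scale. Both rose with PBSL plus IL-1β against IL-1β, with log2 fold changes of 0.62 (limma adjusted p = 0.00437) and 0.41 (limma adjusted p = 0.00375).

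Most genes on a list of chaperones and other factors that handle histones for replication rose with PBSL plus IL-1β against IL-1β. The list is mixed and also holds the importin IPO4, the shared subunit RBBP4 and the helicase subunit MCM2. Of its 12 genes, 10 rose (83.3%, against 11.5% of all genes tested) and none fell with PBSL plus IL-1β against IL-1β. With IL-1β against untreated cells 4 fell (33.3%, against 16%) and none rose, and with PBSL plus IL-1β against untreated cells 6 rose (50%, against 22.3%) and none fell. Of these calls 3, 2 and 2, in this order, were lost in at least 1 alternative. MCM2 is on this list and on the replication list. Among them were ASF1B, which hands H3-H4 to the fork factors (log2 fold change 0.53 with PBSL plus IL-1β against IL-1β and -0.38 with IL-1β against untreated cells, limma adjusted p = 0.00296 and 0.00250), and the chromatin assembly subunit CHAF1A (0.60 with PBSL plus IL-1β against IL-1β, limma adjusted p = 0.00897). NASP, which holds soluble H3-H4, had a log2 fold change of 0.45 with PBSL plus IL-1β against IL-1β (limma adjusted p = 0.00909). A further list held 24 other histone chaperones and exchange factors. It is mixed and not limited to steps outside replication, since it holds SSRP1, which also acts at the fork, and the remodeller subunit ACTR6. Of these 24, 11 rose (45.8%, against 11.5% of all genes tested) and none fell with PBSL plus IL-1β against IL-1β. Of the 11 calls, 5 were lost in at least 1 alternative. In the IL-1β comparison with untreated cells 4 rose (16.7%, close to the 16.2% of all genes tested) and 2 fell (8.33%, against 16%), with 3 of the 4 calls and 1 of the 2 lost in at least 1 alternative. Against untreated cells, PBSL plus IL-1β gave 9 that rose (37.5%, against 22.3%), 3 of them with a call lost in at least 1 alternative, and 2 fell (8.33%, against 19.3%). DAXX, a chaperone of H3.3, rose by a log2 fold change of 0.58 with PBSL plus IL-1β and 0.60 with IL-1β, each against untreated cells (limma adjusted p = 6.59e-06 and 5.50e-06). HJURP, the chaperone of the centromeric H3 variant CENPA, rose in all 3 comparisons (log2 fold changes of 0.28 with IL-1β against untreated cells, 0.43 with PBSL plus IL-1β against IL-1β and 0.70 with PBSL plus IL-1β against untreated cells). The first of these calls was lost without untreated library 3 or IL-1β library 3 (limma adjusted p = 0.0611 and 0.0567). CENPA itself, whose symbol lies outside the rule, had a log2 fold change of 0.37 with PBSL plus IL-1β against IL-1β (limma adjusted p = 0.00700), and 0.14 with IL-1β against untreated cells (limma adjusted p = 0.170). With PBSL plus IL-1β against untreated cells the CENPA change was 0.51, called higher.

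**Figure D5:**
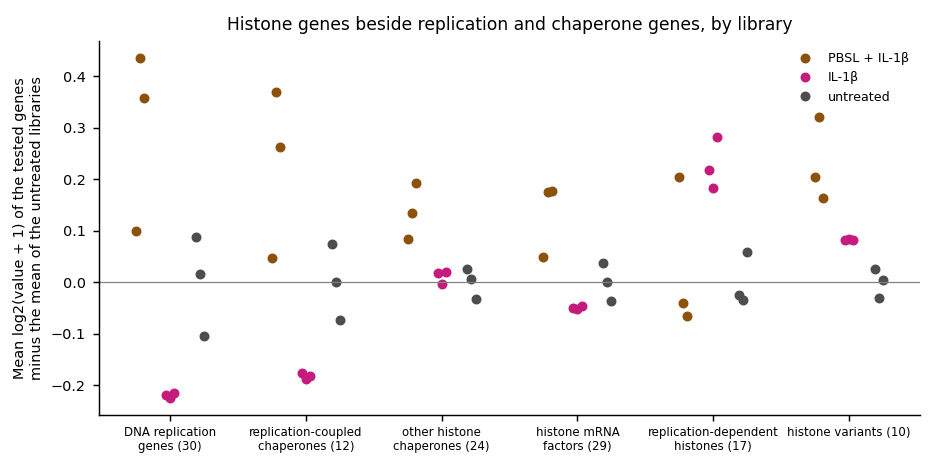
Mean log2(value + 1) of the tested genes of 6 lists in each library, minus the mean of the untreated libraries, for PBSL plus IL-1β, IL-1β and untreated cells (numbers of genes in parentheses, 3 points per group). Replication genes and their chaperones are lowest in the IL-1β libraries, whereas the IL-1β libraries lie above the untreated ones for replication-dependent histones, and PBSL plus IL-1β library 1 lies apart from the other 2 of its group in most lists.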

How the data were processed

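The RNA of 9 libraries was measured, 3 per group. Per the submitters' processing notes Trim Galore, STAR and HTSeq were used with build hg38. The annotation, versions and strand setting are not given in the sources used here. The deposited table holds normalized signal values that the authors scaled by a method not given in the sources used here. Low values fell on whole multiples of a common step too rarely to recover reads (52.2% of 1166 values within 0.1, against 33.4% unscaled), so no count test was run. Differences were fitted with limma 3.58.1 (R 4.3.3, trend, all 9 libraries) on log2(value + 1) for rows with at least 1 in at least 3 libraries, 2-sided, called at an adjusted p under 0.05 over 11924 genes, and checked on simulated data. A pseudocount of 1 understates changes of low genes. Sequences came from GENCODE 29 and RefSeq. Same-numbered libraries did not deviate together, so no pairing was used. The histone genes and lists were chosen with earlier results of these data known. Every histone gene past the filter is named, with library values for those called in a comparison, and from each list up to 4 called genes with the smallest p, SLBP, NPAT, NASP, CHAF1A, ASF1B and CENPA were eligible. Alternatives changed the pseudocount, filter, scaling, groups fitted, trend, block and libraries.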

Additional observations from a re-analysis of the deposited data

How the results depend on the processing

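Of 28 called changes of histone genes, 20 kept their call under all 16 alternatives, and none of the 28 reversed. A further 14 changes that missed the threshold passed it under at least 1 alternative. With IL-1β against untreated cells, the number of histone genes that fell was 1, but 2 in a fit of only the compared groups or without the trend, and 0 to 1 with a library left out (0 without untreated library 3 or IL-1β library 3). The number of called genes on the 4 lists was 24, but 44 in a fit of only the compared groups. For PBSL plus IL-1β against IL-1β, 2684 genes were called, and 1304 to 3910 with a library left out (1304 without IL-1β library 2, 1355 without IL-1β library 3, 1434 without PBSL plus IL-1β library 2, 1451 without IL-1β library 1 and 3910 without PBSL plus IL-1β library 1). The number of histone genes that fell was 6, and 3 to 8 with a library left out (3 without IL-1β library 3). For PBSL plus IL-1β against untreated cells, the number that fell was 2, but 1 with the filter at 0.1, in a fit of only the compared groups or with the replicate block, and 1 to 4 with a library left out (4 without PBSL plus IL-1β library 1). The cause of these differences was not tested.

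No pairing by replicate number was visible. The correlations of same-numbered deviations ran from -0.225 to 0.0681, and those of different-numbered ones from -0.111 to 0.196. With 3 libraries per group this check could miss a pairing. With the replicate block, 3479 genes were called for IL-1β against untreated cells, 2131 for PBSL plus IL-1β against IL-1β and 4535 for PBSL plus IL-1β against untreated cells, and the calls of H2AFY (adjusted p = 0.0508, limma) and H2AFY2 (adjusted p = 0.0813, limma) were lost. Without HIST1H2BK the mean replication-dependent sum was 186 units in PBSL plus IL-1β libraries, 245 in IL-1β libraries and 196 in untreated libraries. Without H2AFZ the mean variant sum was 1446 units in PBSL plus IL-1β libraries, 1338 in IL-1β libraries and 1238 in untreated libraries. The planned count-based alternatives (DESeq2 size factors, TMM) were not run, because the values are not counts. Depth per library is unknown, so counting error of the low rows could not be given. In 13 histone rows below 1 with a model under 450 bases, the smallest value above 0 had a median of 0.228. Tested rows near 1 unit with such short models, HIST1H3C among them, can therefore rest on few fragments.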

Other observations

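The 5 replication-dependent rows that reached 1 unit in fewer than 3 libraries were HIST1H2AM, HIST1H2BE, HIST1H2BO, HIST1H3B and HIST2H2AA3, with highest values of 1.05 to 1.66 units. All 8 replication-dependent genes whose every 100-base window also occurs in another gene were among the untested ones. Of a list of 9 RNAs that carry no poly(A) tail, none had a row in the deposited values, so they could not be tested. Why these rows are absent was not tested.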
